A study of Homo sapiens with 8 samples.

Results

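Metallothioneins and the genes that handle zinc with them were followed through the established human prostate cancer lines 22RV1 and DU145. The group holds 8 of the 58828 genes listed in the count tables, found by symbol: the 6 metallothionein genes MT1E, MT1F, MT1G, MT1M, MT1X and MT2A, the transcription factor gene MTF1 and the zinc exporter gene SLC30A1. HA-tagged PAGE4 under a doxycycline-inducible promoter, or the vector alone, was delivered to each line by lentivirus and selected with puromycin, so that each culture is a selected population and all cultures received doxycycline. Each of these 4 cultures received PBS or 200 mM H2O2 for 12 h, and total RNA of the resulting 8 conditions was sequenced with 1 library per condition. This dose is the one in the labels and methods, and other H2O2 assays of the study used a lower dose. PAGE4 is a cancer/testis antigen, and the comparisons ask how cells with and without it differ under oxidative stress. With 1 library per condition, the spread in each test came from 4 pairs of libraries, which are not replicates of one condition. The pairs differ in line and construct for H2O2, in line and treatment for PAGE4, and in construct and treatment for the comparison of the lines.

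Metallothioneins are small cysteine-rich proteins that bind zinc and copper and react with oxidants, which releases zinc. Free zinc is sensed by MTF1, a zinc finger transcription factor that binds metal response elements (MREs) in the promoters of metallothionein genes and of SLC30A1. SLC30A1, also called ZnT1, moves zinc out of the cell across the plasma membrane. Normal prostate epithelium holds unusually much zinc, and prostate cancer cells usually hold less.

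The 6 metallothionein genes lie together on chromosome 16 of GRCh38, between 56608584 and 56684196, with MT1G on the minus strand and the other 5 on the plus strand. MTF1 lies on the minus strand of chromosome 1 from 37809574 to 37859592, and SLC30A1 on the minus strand of the same chromosome from 211571568 to 211579161. The 250 bases upstream of the start are printed for MT2A, MT1X and SLC30A1, the members in whose promoters a metal response element was found among those with a promoter sequence used here. They are RefSeq promoters of build GRCh38.p14, written 5′ to 3′ on the gene's own strand. Capitals mark the 7-letter MRE core, searched as TGCACNC or TGCGCNC on both strands, and no match overlaps another. The windows are chr16:56608334-56608583 on the plus strand for MT2A, chr16:56682220-56682469 on the plus strand for MT1X and chr1:211579162-211579411 on the minus strand for SLC30A1.
MT2A: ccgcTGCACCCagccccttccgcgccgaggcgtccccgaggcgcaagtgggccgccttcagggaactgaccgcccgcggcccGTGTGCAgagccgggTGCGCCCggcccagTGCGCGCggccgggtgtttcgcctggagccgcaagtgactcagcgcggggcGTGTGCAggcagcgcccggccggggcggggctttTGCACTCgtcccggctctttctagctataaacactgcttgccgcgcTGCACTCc
MT1X: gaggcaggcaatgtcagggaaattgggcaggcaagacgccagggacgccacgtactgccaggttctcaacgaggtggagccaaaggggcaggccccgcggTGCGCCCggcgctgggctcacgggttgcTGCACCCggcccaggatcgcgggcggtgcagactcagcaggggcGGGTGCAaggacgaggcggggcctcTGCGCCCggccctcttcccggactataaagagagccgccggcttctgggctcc
SLC30A1: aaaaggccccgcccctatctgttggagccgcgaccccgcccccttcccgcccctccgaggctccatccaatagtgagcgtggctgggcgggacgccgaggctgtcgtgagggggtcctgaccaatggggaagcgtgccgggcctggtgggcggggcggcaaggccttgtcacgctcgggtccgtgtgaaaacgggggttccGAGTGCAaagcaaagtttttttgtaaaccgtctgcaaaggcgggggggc
In the full 300-base promoters, which also hold the first 50 transcribed bases, MT2A had 8 MRE cores, MT1X had 4 and SLC30A1 had 2. MTF1 itself had 0 in its window. Of 35116 RefSeq promoters of the same length, 29.6% held at least 1 core, 8.6% at least 2, 0.601% at least 4 and 0.0199%, which is 7 promoters, at least 8. A match only describes the letters of the window and is not evidence of binding. The promoters of MT1E, MT1F, MT1G and MT1M were not used here.

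The libraries held 25482984 to 43310401 counted reads. PAGE4 itself had 0 or 1 read in each vector library and 1001 to 1489 reads in each PAGE4 library. HOXB13, a prostate transcription factor, had 2681 to 8635 reads in 22RV1 libraries and 0 to 4 in DU145 libraries, and KLK3, which encodes prostate-specific antigen, had 142 to 1020 and 0 to 1. Of 5 genes taken as DU145 markers, CAV1, VIM and S100A2 were lower in 22RV1 cells, but LGALS1 was higher there and CD44 did not differ between the lines past the threshold. The leukocyte gene PTPRC, the endothelial gene PECAM1 and the fibroblast gene DCN had at most 17 reads in any library, while the fibroblast gene COL1A1 had 145 to 766.

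MT2A was the leading metallothionein gene in every library. Levels are compared between genes as CPM (the read count scaled to library size) per kilobase of the canonical transcript, and between libraries as normalised read counts, which are counts divided by the effective library size. On the per-kilobase scale, MT2A had a median level of 447 in 22RV1 libraries (305 to 602) and 840 in DU145 libraries (582 to 1170), and its range did not overlap that of any other member in the same line. In DU145 cells it was followed by MT1E (176 to 316), MT1X (62.3 to 124) and MT1F (16.8 to 30.4), whose ranges were also separate. The ranges of MT1M, SLC30A1 and MTF1, between 3.02 and 16.1 in DU145 cells, overlapped. In 22RV1 cells the ranges of MT1X (21.7 to 105), MT1G (26.5 to 89.7) and MT1E (17.7 to 61.0) overlapped each other, and those of MT1F (3.19 to 19.3), SLC30A1 (4.57 to 17.0) and MTF1 (4.78 to 8.36) did too, with MT1F also reaching into the range of MT1E. MT1M had the lowest median in 22RV1 cells, at 1.03, with a highest value of 4.96 that reached into the ranges of those 3 genes. Part of this order depends on the length used. With the length of all annotated exons, an alternative chosen after seeing the data, the ranges of MT1F (3.85 to 6.97) and MT1M (3.80 to 12.5) in DU145 cells overlapped each other and those of SLC30A1 and MTF1. In 22RV1 cells the median of MT1X (15.3) was then below those of MT1G (28.7) and MT1E (26.9), while the range of MT2A stayed separate in both lines.

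Summed over the 6 genes, the metallothionein level per kilobase was 374.84 to 882.46 in 22RV1 libraries and 842.70 to 1655.82 in DU145 libraries. MT2A made up 68.26% to 81.24% of that sum in 22RV1 libraries and 69.09% to 73.11% in DU145 libraries. MT1E made up 4.72% to 6.92% in 22RV1 cells and 17.96% to 20.92% in DU145 cells. MT1G made up 7.08% to 10.17% in 22RV1 cells and at most 0.01% in DU145 cells. MT1X made up 5.79% to 12.91% in 22RV1 cells and 5.22% to 7.48% in DU145 cells. With the length of all annotated exons, MT1E made up 7.5% to 11.12% in 22RV1 cells and 27.03% to 31.03% in DU145 cells, and MT1X made up 3.03% to 6.90% and 2.55% to 3.69%. MT2A still made up the most in every library, with 67.86% to 79.82% and 63.41% to 67.67%. In bulk RNA, a change in the number of cells that express a gene and a change in RNA per cell cannot be told apart.

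**Figure D1:**
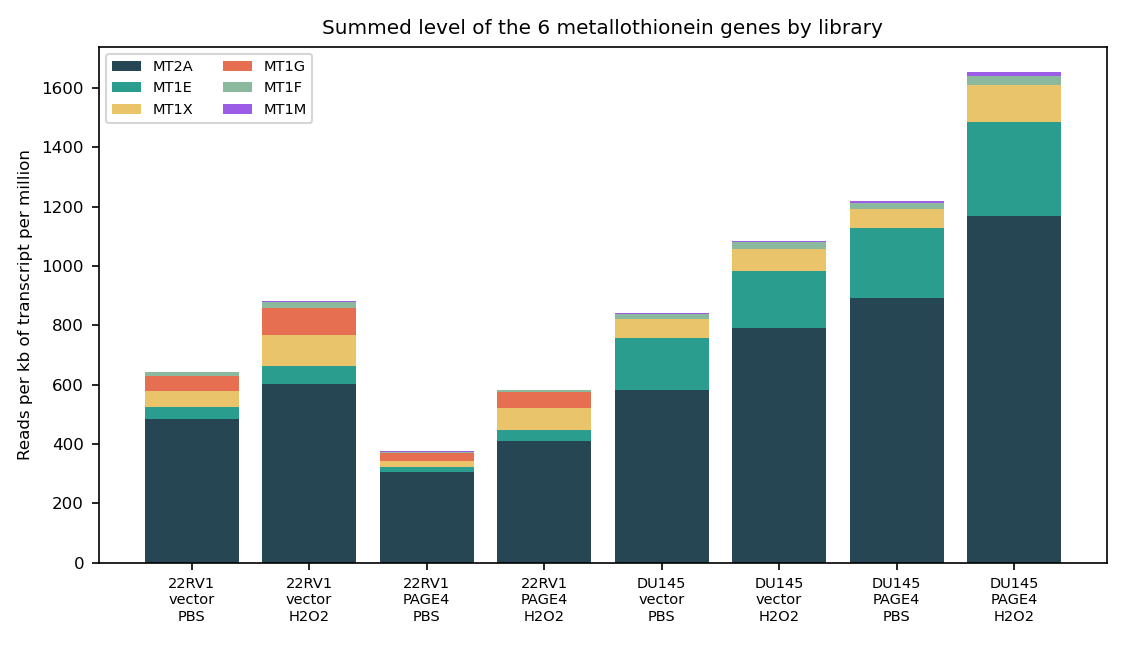
Summed level of the 6 metallothionein genes in each library, in CPM per kilobase of transcript, with the share of each gene as a coloured part of the bar. MT2A fills most of each bar, MT1E is the next largest part in the 4 DU145 libraries, and MT1G is visible in the 4 22RV1 libraries.

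H2O2 was followed by higher levels of most of the group, and SLC30A1 and MTF1 were the members whose calls did not depend on any one pair of libraries. The values below are normalised read counts, given for vector cells with PBS, vector cells with H2O2, PAGE4 cells with PBS and PAGE4 cells with H2O2 in that order.

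SLC30A1, the zinc exporter, had 894.1, 3124.5, 841.9 and 1665.6 in 22RV1 cells and 1059.9, 2051.4, 1040.2 and 2261.2 in DU145 cells. The 4 H2O2 libraries were all above the 4 PBS libraries, and 22RV1 vector cells with H2O2 were the highest. Across the 4 pairs, SLC30A1 rose by 1.22 on the log2 scale (SE 0.16), which is 2.33-fold, with an adjusted p of 0.0032 in edgeR's quasi-likelihood test with Benjamini-Hochberg adjustment. With each pair left out in turn, this change was 1.04 to 1.32, with adjusted p of 0.00741 to 0.00951.

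MTF1, the zinc sensor, had 1210.0, 2075.1, 1186.6 and 1676.5 in 22RV1 cells and 904.9, 1860.1, 749.2 and 1980.8 in DU145 cells. Here too each H2O2 library lay above each PBS library. MTF1 rose by 0.93 (SE 0.14), or 1.91-fold, with an edgeR adjusted p of 0.00495, and with each pair left out in turn the adjusted p was 0.0073 to 0.0242.

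MT2A had 6082.6, 7552.7, 3818.3 and 5128.9 in 22RV1 cells and 7300.5, 9897.1, 11167.0 and 14658.5 in DU145 cells. It was higher with H2O2 in each pair by a similar amount, while the levels of the pairs themselves differed more. MT2A rose by 0.40 (SE 0.08), or 1.32-fold, with an edgeR adjusted p of 0.0125, which became 0.0587 without the DU145 vector pair and 0.178 with cell line as the block in place of the culture.

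MT1X had 702.3, 1328.2, 274.1 and 950.2 in 22RV1 cells and 787.3, 922.4, 803.0 and 1564.6 in DU145 cells. As a fold change, the higher level with H2O2 was smallest in DU145 vector cells and largest in 22RV1 PAGE4 cells, which started from the lowest PBS level. MT1X rose by 0.98 (SE 0.23), or 1.97-fold, with an edgeR adjusted p of 0.0229, which became 0.0597 without the 22RV1 vector pair and 0.0581 without the DU145 PAGE4 pair. In the annotation, 321 exonic bases of MT1X are shared with a long noncoding RNA gene on the same strand, so its counts could be split between them.

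MT1E had 917.6, 1424.0, 413.1 and 850.7 in 22RV1 cells and 4111.8, 4550.1, 5564.0 and 7378.7 in DU145 cells. It was higher with H2O2 in each pair, and every DU145 library lay above every 22RV1 library. MT1E rose by 0.56 (SE 0.15) with an edgeR adjusted p of 0.0373, and the adjusted p was 0.0952, 0.0677 and 0.0667 without the 22RV1 vector, 22RV1 PAGE4 and DU145 PAGE4 pair. With cell line as the block it was 0.171.

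MT1F had 160.4, 255.8, 42.4 and 75.8 in 22RV1 cells and 222.8, 295.2, 272.6 and 403.5 in DU145 cells. It rose by 0.62 (SE 0.17) with an edgeR adjusted p of 0.0405, which was 0.107, 0.0729, 0.0865 and 0.113 without the 22RV1 vector, 22RV1 PAGE4, DU145 vector and DU145 PAGE4 pair. The call therefore needed all 4 pairs, and it was also lost with cell line as the block (adjusted p 0.323).

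MT1G had 633.9, 1150.0, 340.0 and 713.2 in 22RV1 cells, while its raw count in DU145 cells was 0, 0, 0 and 1. The change across the 4 pairs, 1.02 (SE 0.22) with an edgeR adjusted p of 0.0212, thus rests on the 22RV1 pairs, and the adjusted p was 0.12 without the vector pair and 0.115 without the PAGE4 pair of that line. MT1M had raw counts of 15, 78, 19 and 6 in 22RV1 cells and 56, 62, 53 and 158 in DU145 cells, and its change of 1.02 (SE 0.53) did not pass the test (edgeR adjusted p = 0.21), although the same change passed with no filter on low counts (0.0189). Of the 50-base stretches of their exons, 16.4% for MT1G and 18.2% for MT1M also occur in another metallothionein gene, so these counts are less certain than those of MT2A with 4.2%.

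**Figure D2:**
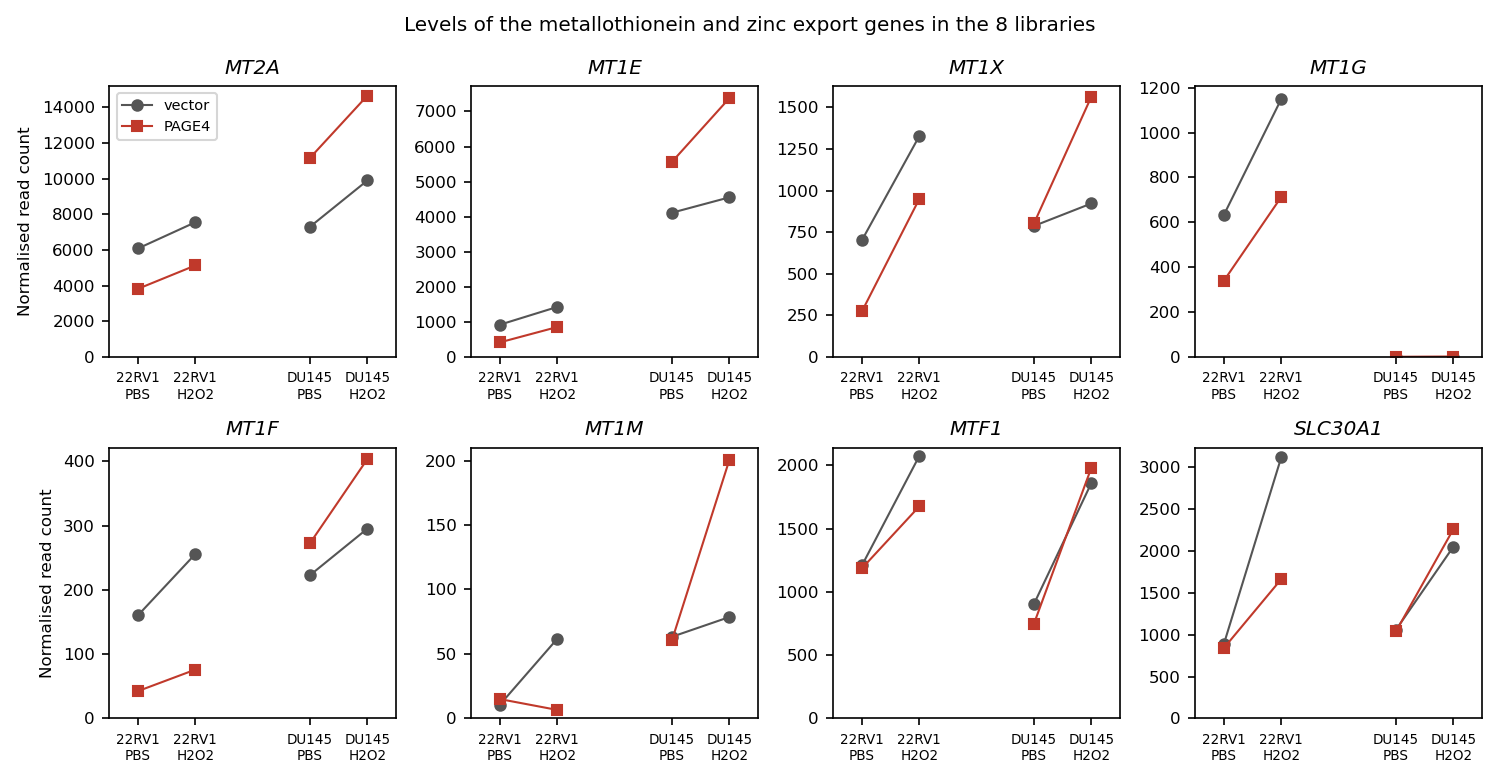
Normalised read counts of the 8 genes in the 8 libraries, with a line from PBS to H2O2 for vector cells (grey circles) and PAGE4 cells (red squares) of each cell line. Each axis starts at 0, the vector points of MT1G in DU145 cells lie under the PAGE4 points at or near 0, and each of the lines of SLC30A1, MTF1, MT2A, MT1X, MT1E and MT1F goes up.

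Counted together, 7 of the 8 members rose with H2O2 across the 4 pairs and 0 fell, against 8.89% of all 22418 genes tested that rose. MT1G was among the 7 through its 22RV1 pairs alone. DESeq2's Wald test also called 7, while edgeR called 3, 4, 5 and 4 without the 22RV1 vector, 22RV1 PAGE4, DU145 vector and DU145 PAGE4 pair, 4 with cell line as the block and 8 with no filter on low counts. The median log2 fold change was 0.96 over the members and -0.03 over all genes. In 22RV1 cells, 7 of 8 members rose (12.8% of all genes), and MT1M with a change of 1.19 (SE 0.64, edgeR adjusted p = 0.188) did not pass. With 1 pair of a line left out, the effect in that line rests on 1 library against 1. The spread then comes from the other line, so only the change is given. Without the 22RV1 PAGE4 pair, MT1M had a change of 2.55. Without the 22RV1 vector pair, MT1M had -1.16 and MT1F 0.86. In DU145 cells, 4 of 8 members rose (16.9% of all genes), namely SLC30A1, MTF1, MT2A and MT1X. MT1G, with at most 1 read in any DU145 library, could not be judged there. MT1X in DU145 cells rose by 0.57 (SE 0.18, edgeR adjusted p = 0.0188), but without the PAGE4 pair of that line its change was 0.20. The changes of MT1E and MT1F in DU145 cells were 0.25 (SE 0.10, edgeR adjusted p = 0.0601) and 0.46 (SE 0.20, edgeR adjusted p = 0.0807). MT1E passed with DESeq2 size factors (adjusted p 0.0364) and with no filter on low counts (0.015). Leaving out a 22RV1 pair removes no DU145 library and only takes the 22RV1 pairs out of the spread. Such fits are therefore no check of the DU145 changes. MT1M in DU145 cells had a change of 1.01 (SE 0.50, edgeR adjusted p = 0.131) and passed with no filter (0.0157). Over the fits with a pair left out, its change was 0.28 to 1.69. The number of members that rose in DU145 cells was thus 6 with no filter.

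Within single pairs, a gene was counted where its normalised count differed by more than 1.5-fold, with no test. In 22RV1 vector cells, 7 of 8 members were higher (14.7% of all genes whose mean normalised count in the line reached 10), and in 22RV1 PAGE4 cells 5 of 8 were higher (13.0%) and 1, MT1M, was lower (16.4%). In DU145 vector cells, MTF1 and SLC30A1 were the 2 of 7 members counted as higher (19.2%), and in DU145 PAGE4 cells 4 of 7 were higher (19.3%), with MT1X and MT1M added. When libraries were scaled by total counts in place of effective size, the share of genes past 1.5-fold that were higher moved from 39.7% to 57.0% in 22RV1 vector cells and from 44.2% to 61.0% in 22RV1 PAGE4 cells, and the members kept their signs. In 22RV1 cells, the luminal markers KLK2, KLK3, HOXB13 and TMPRSS2 fell with H2O2, with edgeR log2 fold changes of -1.83, -2.21, -1.31 and -1.54. In DU145 cells the share of reads from the mitochondrial ribosomal RNA gene MT-RNR1 was 0.904% to 1.04% with PBS and 4.32% to 4.54% with H2O2. The share of reads from the whole mitochondrial genome was lower with H2O2 in all 4 pairs, at 10.21% to 12.27% with PBS and 8.97% to 9.19% with H2O2 in 22RV1 cells and 14.61% to 16.54% and 10.89% to 11.16% in DU145 cells. The part of any of these in the changes of the members was not tested.

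**Figure D3:**
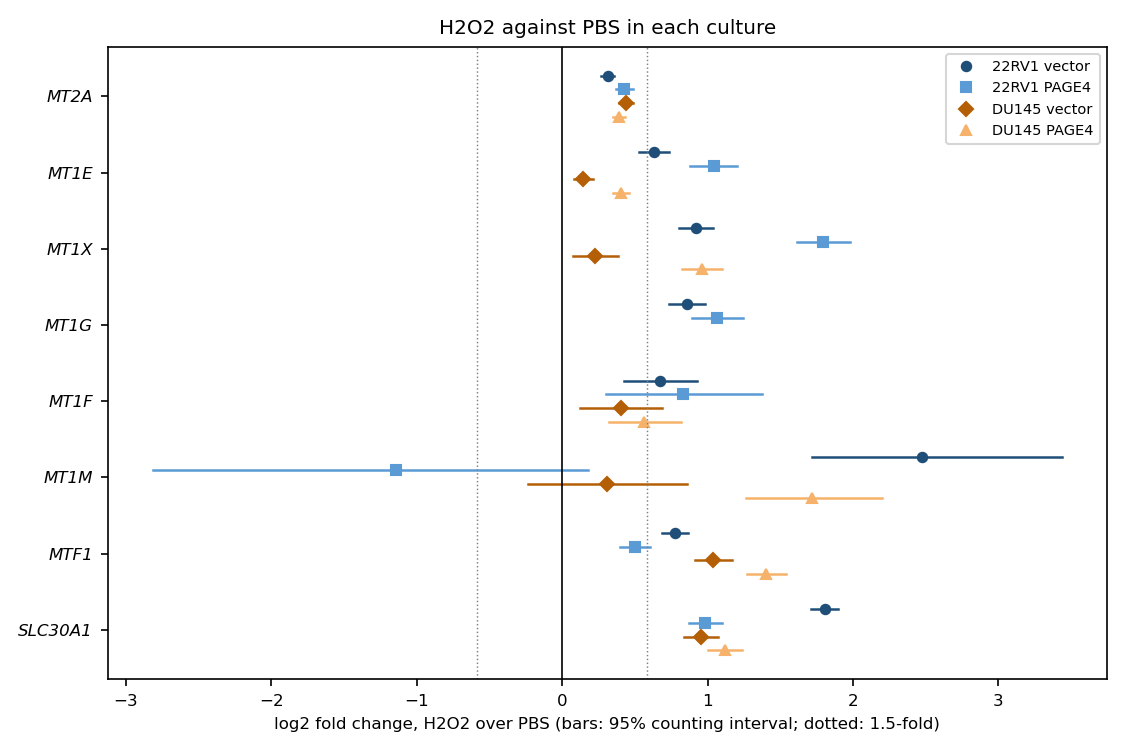
Log2 fold change of normalised counts, H2O2 over PBS, for each member in each of the 4 cultures, with bars for the 95% counting interval and dotted lines at 1.5-fold. SLC30A1 lies right of the dotted line in all 4 cultures and MTF1 in 3 of them, while MT1M in 22RV1 PAGE4 cells lies left of 0 with an interval of -2.81 to 0.18. MT1G is not drawn for DU145 cells.

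For 3 of the 8 members, edgeR called a difference of the H2O2 change between the lines. Tested as a difference, the H2O2 change of MT1E was larger in 22RV1 cells by 0.62 (SE 0.15, edgeR adjusted p = 0.00675) and that of MT1X by 0.80 (SE 0.26, edgeR adjusted p = 0.0398). The change of MTF1 was smaller in 22RV1 cells, with a difference of -0.50 (SE 0.16, edgeR adjusted p = 0.042). Thus 2 members differed upward and 1 downward, against 8.76% and 7.54% of all genes. DESeq2's Wald test called only the difference of MT1E, with adjusted p of 0.0599 for MT1X and 0.0509 for MTF1. With a pair left out, 1 line rests on 1 library against 1, so only the sizes are given. The difference was then 0.39 to 0.79 for MT1E, 0.35 to 1.21 for MT1X and -0.70 to -0.33 for MTF1. For SLC30A1 the difference was 0.44 (SE 0.20, edgeR adjusted p = 0.153), and it became -0.03 without the 22RV1 vector pair and 0.80 without the 22RV1 PAGE4 pair. For MT1M it was 0.17 (SE 0.78, edgeR adjusted p = 0.94), and -2.21 without the 22RV1 vector pair.

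With both lines pooled, the H2O2 change was not found to differ between PAGE4 and vector cells. A difference within 1 line, or in opposite directions in the lines, could be missed by the pooled test and was not tested. SLC30A1, for example, rose 3.49-fold in vector and 1.98-fold in PAGE4 cells of 22RV1, and 1.94-fold and 2.17-fold in those of DU145. edgeR's quasi-likelihood test called 0 of 22418 genes (0.0%), with 59 at an unadjusted p under 0.05, and 0 of the 8 members by either count, and DESeq2's Wald test called 0 genes as well. The difference for MT1X was 0.79 (SE 0.41, unadjusted p = 0.0966), and its adjusted p was 1.0.

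PAGE4 cells differed from vector cells in opposite directions in the lines. In 22RV1 cells, 5 of the 6 metallothionein genes were lower in PAGE4 cells than in vector cells, and in DU145 cells MT2A and MT1E were higher. Each construct is 1 selected culture per line, so an effect of PAGE4 and any other difference between the cultures cannot be told apart. The PAGE4 tests take their spread from PBS and H2O2 libraries of the same cultures, so their p-values do not measure variation between cultures.

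In 22RV1 cells, the normalised read count of MT1F was 160.4 in vector and 42.4 in PAGE4 cells with PBS, and 255.8 and 75.8 with H2O2. Both PAGE4 libraries lay below both vector libraries. Its change was -1.82 (SE 0.22, edgeR adjusted p = 4.48e-05), which is 3.54-fold lower. MT1E, MT1X, MT1G and MT2A were lower by the same test, with changes of -0.93 (adjusted p 2.95e-05), -0.89 (0.00743), -0.78 (0.00737) and -0.61 (5.38e-05). For MT2A and MT1E, too, both PAGE4 libraries lay below both vector libraries, whereas for MT1X and MT1G the PAGE4 library with H2O2 lay above the vector library with PBS. The 5 changes kept their direction with each pair left out in turn. A fit without a 22RV1 pair leaves 1 library per construct in that line and takes its spread from DU145 cells. It is therefore no check of these calls. The 5 of 8 members that were lower compare with 2.14% of all genes, and the median change was -0.83 over the members and -0.01 over all genes.

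The other members did not pass in 22RV1 cells. SLC30A1 had a change of -0.50 (SE 0.14, edgeR adjusted p = 0.0551), which was -0.89 without the 22RV1 PBS pair and -0.06 without the 22RV1 H2O2 pair. SLC30A1 passed with no filter on low counts (adjusted p 0.000278). MTF1 had -0.16 (SE 0.11, edgeR adjusted p = 0.552). MT1M had -1.33 (SE 0.64, edgeR adjusted p = 0.33), with 6 raw reads in PAGE4 cells with H2O2 against 78 in vector cells. Without the 22RV1 PBS pair MT1M had -3.21, and without the 22RV1 H2O2 pair 0.51.

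In DU145 cells, the normalised count of MT2A was 7300.5 in vector and 11167.0 in PAGE4 cells with PBS, and 9897.1 and 14658.5 with H2O2. Both PAGE4 libraries were higher than both vector libraries, and MT2A was higher in PAGE4 cells by 0.58 (SE 0.07, edgeR adjusted p = 0.0011). MT1E was higher by 0.56 (SE 0.10, edgeR adjusted p = 0.025), and without the H2O2 pair of that line by 0.44. These were 2 of 8 members, against 0.112% of all genes, and MT1G had too few reads in DU145 cells to be judged. MT1X had 0.39 (SE 0.18, edgeR adjusted p = 0.648) and MT1F 0.36 (SE 0.20, edgeR adjusted p = 0.728).

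Tested as a difference between the lines, the PAGE4 change was lower in 22RV1 cells for 4 members, against 0.977% of all genes. The difference was -1.19 (SE 0.10) for MT2A, with an edgeR adjusted p of 3.57e-06. It was -1.49 (SE 0.15) for MT1E, with an edgeR adjusted p of 1.29e-05, and -2.19 (SE 0.29) for MT1F, with an edgeR adjusted p of 0.000402. It was -1.28 (SE 0.26) for MT1X, with an edgeR adjusted p of 0.0129, and -1.73 to -0.87 over the fits with a pair left out. Across both lines, 0 of 8 members passed in edgeR (1 at an unadjusted p under 0.05, 0 in DESeq2), against 0.174% of all genes. With no filter on low counts, MT1F (-0.65, edgeR adjusted p 0.0426) and MT1G (-0.77, edgeR adjusted p 0.0128) passed as lower in the pooled test. In DU145 cells, however, MT1F was higher in PAGE4 than in vector cells, by 0.29 with PBS and 0.45 with H2O2. MT1G had at most 1 read in any DU145 library. Both pooled calls therefore rest on the 22RV1 pairs and do not show lower levels in DU145 cells. In the line difference, SLC30A1 had a difference of -0.55 (SE 0.20, edgeR adjusted p = 0.223), which was -0.95 without the 22RV1 PBS pair and passed with no filter (-0.57, adjusted p 0.018). MT1M had -2.01 (SE 0.82, edgeR adjusted p = 0.297), which was -3.91 without the 22RV1 PBS pair and passed with no filter (-2.03, adjusted p 0.0221). With no filter, 6 members were thus lower.

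Within single pairs and past 1.5-fold, 5 of 8 members were lower in 22RV1 PAGE4 cells with PBS (11.2% of genes) and 5 of 8 with H2O2 (11.2%). With PBS these were MT1E, MT1F, MT1G, MT1X and MT2A, and with H2O2 they were MT1E, MT1F, MT1G, MT1M and SLC30A1. In DU145 cells, 1 of 7 members was higher with PBS (8.42%), which was MT2A, and 3 of 7 with H2O2 (7.81%), which were MT1E, MT1M and MT1X. The H2O2 and PAGE4 comparisons share libraries, so their values are given side by side and not as independent results.

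**Figure D4:**
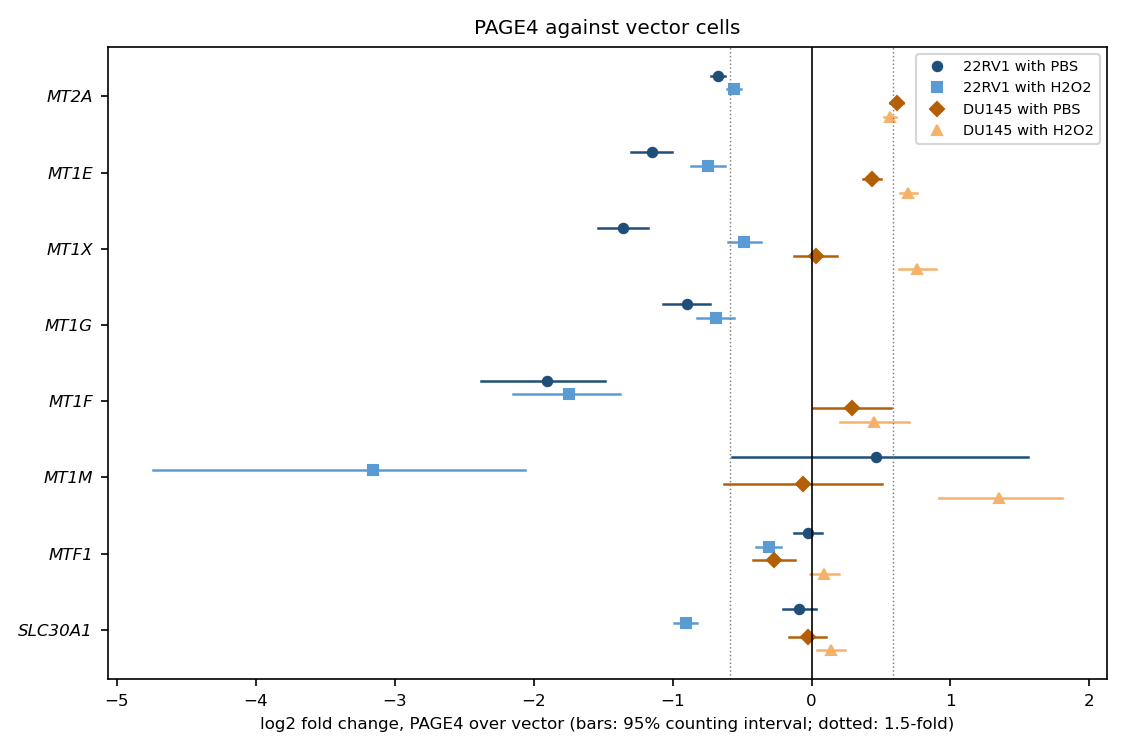
Log2 fold change of normalised counts, PAGE4 over vector cells, for each member in each line with PBS or H2O2, with bars for the 95% counting interval and dotted lines at 1.5-fold. For MT2A, MT1E and MT1F the blue 22RV1 points lie left of 0 and the orange DU145 points right of 0, and MTF1 lies within the dotted lines in all 4 comparisons.

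Between the lines, MT1G was the member with the widest gap. Its raw counts of 889, 1452, 433 and 659 in 22RV1 cells stood against 0, 0, 0 and 1 in DU145 cells. Against a floor of 3 counts per library, its normalised count was at least 187-fold higher in 22RV1 vector cells with PBS, at least 303-fold higher in vector cells with H2O2 and at least 98.9-fold higher in PAGE4 cells with PBS. In PAGE4 cells with H2O2 the ratio was 562 with a 95% counting interval of 101 to 22200. All 4 DU145 counts are under the floor, so MT1G was not detectable in DU145 cells at this depth.

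MT1E, MT1M, MT1F and MT2A were lower in 22RV1 cells across the 4 conditions. MT1E was lower by 2.66 on the log2 scale (SE 0.32, edgeR adjusted p = 0.000187), or 6.31-fold. MT1M had a change of -2.27 (SE 0.65, edgeR adjusted p = 0.0157), MT1F of -1.39 (SE 0.45, edgeR adjusted p = 0.0264) and MT2A of -0.92 (SE 0.23, edgeR adjusted p = 0.00911). The call of MT1F was lost without the PAGE4 PBS pair (-0.97, adjusted p 0.0861) and without the PAGE4 H2O2 pair (-1.06, adjusted p 0.106). MT1X (-0.46, SE 0.30, edgeR adjusted p = 0.218), MTF1 (0.26, SE 0.15, edgeR adjusted p = 0.159) and SLC30A1 (-0.09, SE 0.18, edgeR adjusted p = 0.701) did not pass. MT1X passed without the vector H2O2 pair (-0.81, adjusted p 0.0324) and with no filter on low counts (-0.47, adjusted p 0.0272), and MTF1 without the PAGE4 H2O2 pair (0.41, adjusted p 0.0439). In all, 4 members were lower, against 28.5% of all genes. MT1G entered the fit only through its reads in 22RV1 cells, so its values above are a description with no test.

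Among the remaining metallothionein genes, the pseudogene MT1L had the most reads, and each of the others had at most 42 in any library. Of 10 that the tables list, 3 passed the filter on low counts, and edgeR called 0 of these 3 with H2O2 across the 4 pairs, with 0 at an unadjusted p under 0.05 and 0 in DESeq2. MT1H, next to MT1G, had 29, 36, 9 and 42 raw reads in 22RV1 cells and 0 in all 4 DU145 libraries. Its normalised count was thus at least 2.06-fold to at least 11.9-fold higher in 22RV1 cells. Of the 50-base stretches of MT1G, 6.4% also occur in MT1H, so these few reads could include reads of MT1G, which was not tested. MT1A was the reverse of MT1H, with 0 reads in all 4 22RV1 libraries and 13, 5, 31 and 13 in DU145 cells. MT1L was lower in 22RV1 cells, with a change of -3.03 (SE 0.33, edgeR adjusted p = 0.000107), and had 19 to 43 raw reads there and 119 to 203 in DU145 cells.

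Among the other zinc transporters, 3 SLC30 and 3 SLC39 genes passed the test with H2O2, some as higher and some as lower. Most SLC30 proteins move zinc out of the cytosol, to the outside or into organelles, and most SLC39 proteins move it in. Of 9 other SLC30 genes, 8 were tested, and with H2O2 across the 4 pairs 1 rose and 2 fell, with a median change of -0.09, where 8.89% of all genes rose and 11.2% fell. SLC30A7, a Golgi zinc transporter, had normalised counts of 1231.4, 1644.2, 995.8 and 1361.5 in 22RV1 cells and 1076.9, 2031.1, 1060.8 and 2131.8 in DU145 cells. All 4 H2O2 libraries lay above all 4 PBS libraries, and the gene rose by 0.70 (SE 0.12, edgeR adjusted p = 0.00805). SLC30A9 fell by 0.40 on the log2 scale (SE 0.09, edgeR adjusted p = 0.0204), with 3090.3 to 3286.9 in the 4 PBS libraries and 2219.9 to 2525.0 with H2O2. SLC30A4 fell by 0.63 on the log2 scale (SE 0.18, edgeR adjusted p = 0.0432), a call lost with any of the 4 pairs left out (adjusted p 0.064 to 0.157), and that of SLC30A9 was lost without the 22RV1 vector, DU145 vector or DU145 PAGE4 pair (adjusted p 0.0909, 0.1 and 0.0625).

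Of 14 SLC39 genes, 13 were tested, and 1 rose and 2 fell, with a median change of -0.08, which is close to the shares over all genes. DESeq2's Wald test called 4 of the 13, with SLC39A8 added. SLC39A14, a plasma membrane importer of zinc and iron, had 3079.5, 4448.0, 2889.2 and 3926.5 in 22RV1 cells and 5077.8, 10383.6, 5071.4 and 10283.3 in DU145 cells. It was higher with H2O2 in each pair and rose by 0.76 (SE 0.12, edgeR adjusted p = 0.0049). SLC39A11 had 603.9 to 905.0 in the PBS libraries and 308.9 to 505.6 in the H2O2 libraries, with no overlap, and fell by 0.93 on the log2 scale (SE 0.13, edgeR adjusted p = 0.00364). SLC39A10 fell by 0.54 on the log2 scale (SE 0.14, edgeR adjusted p = 0.0326), and this call was lost without the 22RV1 vector (adjusted p 0.144), 22RV1 PAGE4 (0.116) or DU145 vector pair (0.0506).

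**Figure D5:**
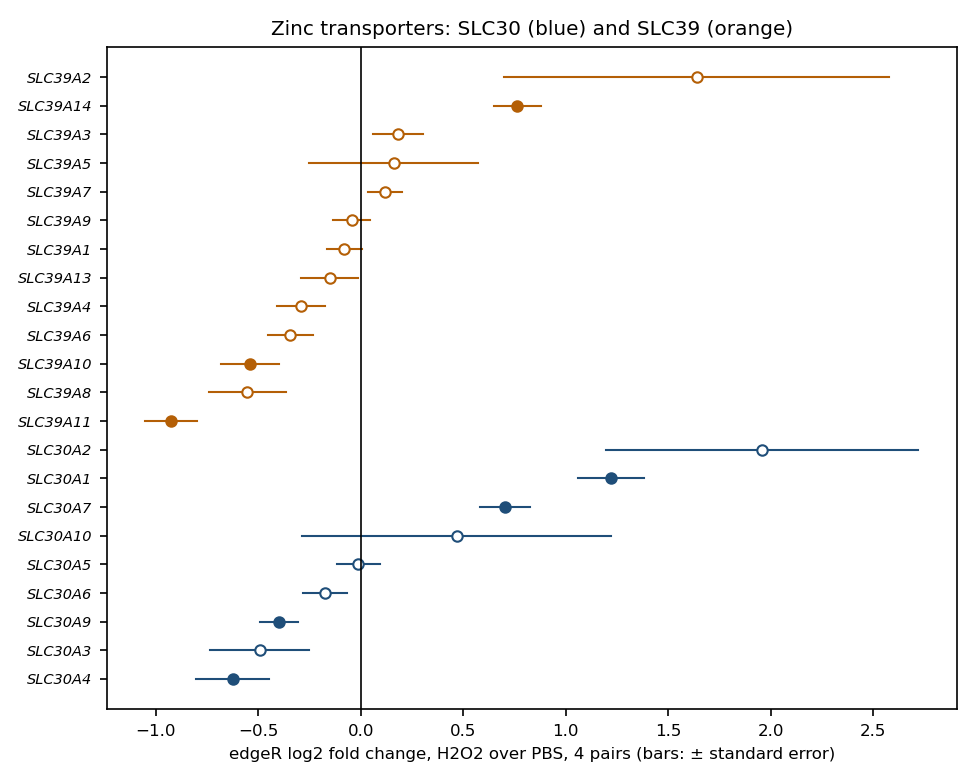
edgeR log2 fold change with H2O2 across the 4 pairs for the zinc transporter genes tested, SLC30 in blue and SLC39 in orange, with bars for the standard error and filled points for an adjusted p under 0.05. The filled points right of 0 are SLC30A1, SLC30A7 and SLC39A14, and those left of 0 are SLC30A4, SLC30A9, SLC39A10 and SLC39A11.

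Of the 8 other SLC30 genes tested between the lines, 3 were called higher and 2 lower in 22RV1 cells, and of the 13 SLC39 genes 2 were called higher and 5 lower, where 31.9% of all genes were higher and 28.5% lower. Of the 3 higher SLC30 genes, SLC30A2 and SLC30A10 entered the fit through their reads in 22RV1 cells, so their calls are no evidence of a difference. SLC30A5 was higher (0.82, SE 0.11, edgeR adjusted p = 0.000375), while SLC30A10, a manganese exporter, had 23 to 57 raw reads against 0 to 3 in DU145 cells. SLC30A3 was lower in 22RV1 cells (-3.94, SE 0.57, edgeR adjusted p = 0.000515), with 8 to 44 raw reads against 153 to 409. The importers SLC39A8 (1.90, SE 0.21, edgeR adjusted p = 0.000106) and SLC39A4 (1.23, SE 0.12, edgeR adjusted p = 6.81e-05) were higher in 22RV1 cells. SLC39A14 was lower there (-1.03, SE 0.12, edgeR adjusted p = 0.000174).

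The pattern of a gene over the 8 libraries was also compared with those of MT2A and SLC30A1, as the Pearson correlation of log2 levels after the mean of each line was removed, over 12419 genes with a mean normalised count of at least 50 in each line. These correlations are a description, since the libraries share lines, constructs and treatment. The most similar genes to MT2A were ATP2C2 (r = 0.99), MGLL (0.95), UBE2M (0.95), DCAF15 (0.94) and TXNDC11 (0.94). Of the other members, MT1E was rank 9 of 12419 for likeness to MT2A (0.92), MT1F rank 65 (0.86), MT1X rank 143 (0.82), SLC30A1 rank 921 (0.67) and MTF1 rank 2203 (0.54). The most similar genes to SLC30A1 were ELF1 (r = 0.995), PSMD3 (0.994), SDR42E1 (0.993), FAM160B1 (0.992) and PEF1 (0.992), and MTF1 was rank 918 (0.88). The metallothionein genes were less like SLC30A1, with MT1X at rank 1618 (0.82), MT1E at 2541 (0.71), MT2A at 2824 (0.67) and MT1F at 3004 (0.64).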

How the data were processed

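RNA-seq of 8 libraries was deposited as unnormalised counts of reads, with a table for each line. Per the labels, alignment by the authors used HISAT2 2.1.0 and the build GRCh38, and featureCounts 1.6.0 gave the gene totals. The annotation release, the strand setting and the treatment of reads that map to several places are not given in the sources used here, and such reads bear on the metallothionein genes, whose exons hold stretches in common. In the gene column, 26 symbols had been turned into dates, none of them a member. Total counts per library were 25482984 to 43310401, and intervals and the floor of 3 counts cover counting error only.

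The main test was edgeR 4.0.16 under R 4.3.3 with glmQLFit and glmQLFTest (filterByExpr, TMM factors). Pairs of libraries served as blocks, sharing line and construct for H2O2, line and treatment for PAGE4, and construct and treatment for the lines. Benjamini-Hochberg adjustment covered all 22418 genes tested, with a threshold of 0.05. Single pairs were compared by fold change over 1.5, the limit in the study's methods, among genes whose normalised count averaged 10 or more within the line, with a pseudocount of 0.5 and 95% Clopper-Pearson intervals of the ratio of counts. Positions and canonical transcript lengths are from GENCODE release 44. Alternatives were DESeq2 1.42.0 size factors and its Wald test, total counts, no filter, other minimums, pseudocounts and fold limits, cell line as block, and each pair left out. The members and lists were chosen with earlier results of these data known. Genes named are the members, up to 3 called genes per zinc list for H2O2 and for the lines by lowest adjusted p, the 5 genes most like MT2A and SLC30A1, and markers. Protein and xenograft data were not analysed here, and some marker genes are not reported here.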

Additional observations from a re-analysis of the deposited data

Results flagged for a closer look

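The H2O2 change differed between the lines, by a test of the difference itself, for MT1E (0.62 larger in 22RV1 cells on the log2 scale), MT1X (0.80 larger) and MTF1 (-0.50, smaller in 22RV1 cells). DESeq2's Wald test called that of MT1E alone. A fit with a pair left out rests on 1 library against 1 in a line and is no check of these calls.

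The difference between PAGE4 and vector cells was itself different between the lines for MT1E (-1.49), MT1F (-2.19), MT1X (-1.28) and MT2A (-1.19), with the lower value in 22RV1 cells in each case. All kept their direction with each pair left out in turn, but such a fit leaves 1 library per construct in a line and is no check of the calls. The culture and the construct cannot be told apart.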

How the results depend on the processing

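With 1 library per condition, residual spread is estimated from 2 or 3 degrees of freedom per gene, and a p that misses the threshold does not show that levels were equal. Fits with a pair left out have fewer. Where effects were fitted for each line or construct, such a fit takes no spread from the group that lost the pair. The labels give no replicate numbers, so none served as a block. Libraries were paired by line, construct and treatment in the tests themselves, and with cell line as the block in their place the H2O2 calls of MT1E, MT1F and MT2A were lost (adjusted p 0.171, 0.323 and 0.178).

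Apart from counts over all genes, alternatives were tallied for chosen members and named genes of each test, and not for every member. Of these, 752 values kept their direction and side of the threshold, 38 lost a call, 27 gained one, 11 moved and 5 reversed. The tally includes fits that leave 1 pair in a line, and the cause was not tested. The reversals in this tally were MT1M with H2O2 in 22RV1 cells without the vector pair (-1.158, range to 2.549 over pairs left out), SLC30A1 in the line difference of the H2O2 change without the 22RV1 vector pair (-0.031, range to 0.80), MT1M (0.507, range from -3.206) and MTF1 (0.004, range from -0.29) between PAGE4 and vector 22RV1 cells without the H2O2 pair, and SLC30A1 between the lines without the PAGE4 H2O2 pair (0.014, range from -0.334). Outside the tally, MT1M in the line difference of the H2O2 change also reversed without the 22RV1 vector pair. The calls that MT1F and MT1G gained with no filter for PAGE4 across both lines are outside it too.

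The number of genes called for H2O2 across the 4 pairs was 4506, and 1974 to 3880 with a pair left out; it was 3702 to 6113 in 22RV1 cells, 5143 to 9326 in DU145 cells, 2121 to 4252 for the line difference and 0 to 34 for PAGE4 against vector cells, where no filter gave 1. For PAGE4 across the 4 pairs it was 39, with 483 under no filter, 87 with DESeq2's Wald test, 1 with cell line as the block and 10 to 76 with a pair left out. In 22RV1 cells 960 became 776 to 1510 with a pair left out. In DU145 cells 38 became 62 with DESeq2 size factors, 217 with no filter and 15 to 390 with a pair left out. For the line difference of PAGE4, 413 became 806 with no filter and 244 to 1240 with a pair left out.

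For fold changes in single pairs, in the order 22RV1 vector, 22RV1 PAGE4, DU145 vector and DU145 PAGE4 with H2O2, then PAGE4 against vector in 22RV1 with PBS, 22RV1 with H2O2, DU145 with PBS and DU145 with H2O2, no count minimum gave 20293, 17345, 19365, 19322, 15379, 16501, 13856 and 14228 genes. A minimum of 50 gave 4207, 2907, 4825, 5006, 1078, 1599, 783 and 754, and a fold limit of 2 gave 3423, 2579, 3649, 3752, 1563, 1824, 1411 and 1446. Scaling by total counts moved the median of all genes with H2O2 by 0.18 (22RV1 vector) and 0.16 (22RV1 PAGE4). With the length of all annotated exons, chosen after seeing the data, the mean MT2A share in DU145 cells was 65.84% in place of 71.37%.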
